A study of Mus musculus with 10 samples.

Results

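Single cells taken on day 5 of a chemical reprogramming course were compared with single cells taken on day 3, gene by gene over the whole transcriptome. The cells were chosen by the day in their name and by at least 4000 detected genes per cell, which kept 38 of 40 day 3 cells and 36 of 36 day 5 cells, 74 of the 670 cells kept in the series. Both groups were mouse embryonic fibroblasts (MEFs), from ICR embryos according to the study's methods, under the same C6FAE cocktail. The cocktail holds CHIR99021, an inhibitor of the kinase GSK3; a TGF-β receptor inhibitor abbreviated 6; Forskolin, which activates adenylyl cyclase; AM580, a retinoic acid receptor agonist; and EPZ004777, an inhibitor of the histone methyltransferase Dot1l. The 2 groups thus share every agent and differ in the time under it. The labels give a change of medium every 4 days. By that schedule a change falls between the 2 days, so the time since the last change may differ too. The part of that time in the differences was not tested. Cells were picked by hand, and RNA molecules were counted by the molecular tags (UMIs) added to each before amplification.

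The series lists 10 samples, which are batches, but a cell's name gives a day and a running number and no batch. All cells were therefore treated as 1 sample, no test was made and no p-value is given. What follows describes these cells, with "higher" and "lower" by over 1 referring to a difference of mean log2(CPM + 1), where CPM are the UMIs of a gene scaled to the UMIs of its cell. Depth was alike on the 2 days, with a median of 763743 UMIs and 8018 genes per cell on day 3 and of 751825 UMIs and 7953 genes on day 5. Spike-in RNA, left out of all levels, took a median of 2.65% of counts on day 3 and 4.45% on day 5.

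In this protocol fibroblasts turn into cells that resemble extraembryonic endoderm (XEN), the lineage that lines the yolk sac. Fibroblasts are known by the collagens and other matrix proteins that they secrete and by transcription factors such as *Prrx1* and *Twist2*, whereas XEN cells depend on *Sox17*, *Sall4*, *Gata4* and *Foxa2*. Days 3 and 5 lie before the days on which colonies were picked.

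Of 9955 genes with a mean of at least 1 on either day, 364 (3.66%) were higher and 240 (2.41%) were lower on day 5 by over 1. The median difference over all these genes was 0.02, and the median of its size was 0.32. The genes that stood highest on day 5 against day 3 included *Brinp3*, several β-tubulins, the IGF-binding protein gene *Igfbp5* and many collagen and matrix genes, and those that stood lowest included the growth factor *Pdgfa*, the secreted phosphoprotein *Spp1* and the S phase cyclin *Ccne1*. *Gata4* and *Foxa2* had no UMI on either day, and *Sox17* had UMIs in a minority of cells on both.

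**Figure D1:**
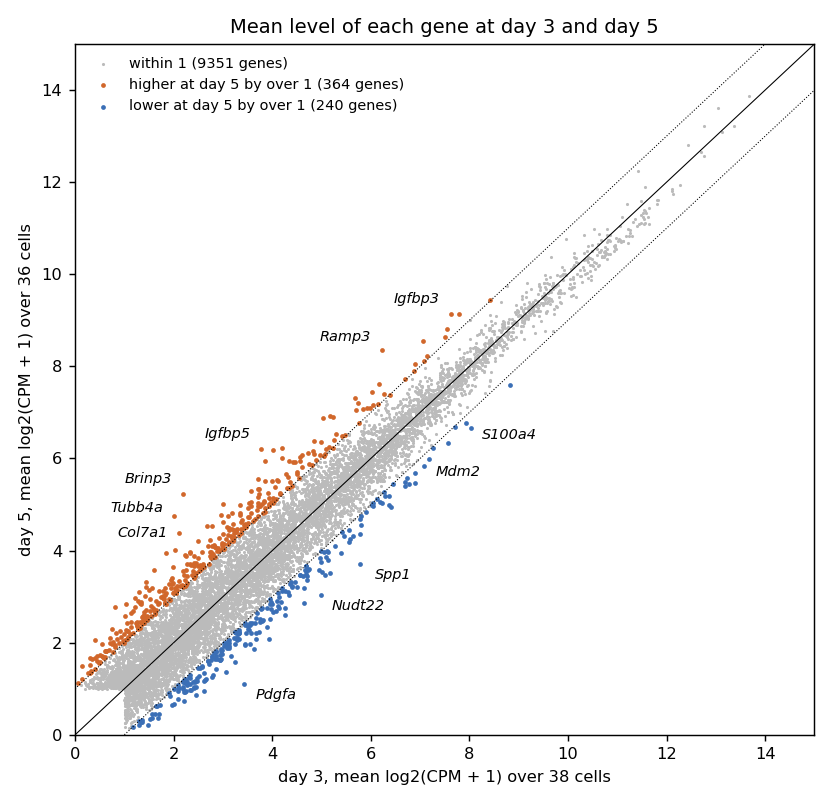
Mean log2(CPM + 1) of each of 9955 genes on day 3 (x axis, 38 cells) and day 5 (y axis, 36 cells); the solid line marks equal levels and the dotted lines a difference of 1. Most genes lie between the dotted lines, 364 lie above and 240 below, and *Brinp3* and *Pdgfa* lie farthest out on their sides.

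Neighbouring pairs of days were compared in the same way. Between day 2 and day 3 the level of 1031 genes (10.4%) differed by over 1, between day 3 and day 4 that of 1253 (12.7%), between day 4 and day 5 that of 1348 (13.5%) and between day 5 and day 6 that of 3269 (33.1%). Day 3 and day 5 were thus closer to each other, with 604 genes apart (6.07%), than each was to day 4 between them. The days differ in their numbers of cells, with 83 on day 2, 77 on day 4 and 86 on day 6. Day 4 was itself split, as described further on for single genes, and all of these counts rest on 1 group of cells per day.

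**Figure D2:**
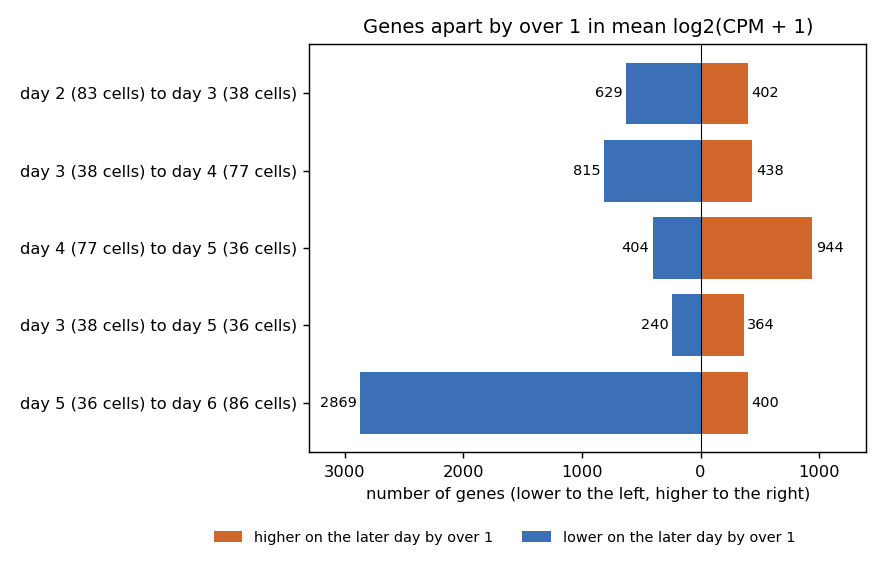
Number of genes whose mean log2(CPM + 1) was higher (right) or lower (left) by over 1 on the later day, for 5 pairs of days with the number of cells kept on each. The bar for day 3 to day 5 is the shortest in total, with 364 higher and 240 lower, and the longest is day 5 to day 6, where 2869 genes were lower.

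What the running numbers stand for is not stated, and the cells were also divided at number 24. Within day 3, the 16 cells above 24 differed from the 22 cells up to 24 by over 1 in 958 genes. Within day 5, the 12 cells above 24 differed from the 24 up to 24 in 1665 genes. Both counts are above the 604 genes between the days, but they rest on smaller groups than the 38 and 36 cells compared there. The later-numbered day 5 cells were shallower, with a median of 433828 UMIs in 12 cells against 1010578 in 24 cells. Of the 364 genes higher on day 5, 121 were higher by over 1 in both ranges of numbers, as were 92 of the 240 lower genes on their side. Values in the ranges are given below for some of the genes described, mainly where they differ widely.

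The largest difference was that of *Brinp3*, a gene named for its induction by BMP and retinoic acid in neural cells. Its level per cell ran from 0 to 206 CPM with a median of 1.25 on day 3, and from 0 to 654 CPM with a median of 84.7 on day 5. A level of at least 20 CPM was found in 8 of 38 cells on day 3 and in 24 of 36 on day 5, and 10 day 5 cells lay above the highest day 3 cell. The groups overlapped at the low end, since 7 day 5 cells had no *Brinp3* UMI. Summed UMIs were 548 (503 to 596, exact Poisson interval at 95%) of 44077140 on day 3 and 4055 (3931 to 4182) of 33164297 on day 5. The difference in mean log2(CPM + 1) was 3.04, with 3.96 among cells numbered up to 24 and 1.35 above. Such intervals, here and below, cover counting error only.

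β-Tubulins, with α-tubulins the building blocks of microtubules, held 2 of the 15 largest rises. *Tubb4a* had a median of 1.21 CPM on day 3 (0 to 56.2) and of 44.9 CPM on day 5 (0 to 260). For this gene 18 of 36 day 5 cells were above every day 3 cell, and the difference was 2.74. *Tubb2a* went from a median of 20.1 CPM (0 to 135) to 85.2 CPM (1.49 to 583), a difference of 2.09, and had UMIs in 31 of 38 and in 36 of 36 cells. *Tubb2b* was higher by 1.82 and the neuronal *Tubb3* by 1.04. The sequences of *Tubb2a* and *Tubb2b* are so alike that reads of the one can be counted to the other, and their values are not independent. In contrast the α-tubulin *Tuba4a* was lower by over 1, with UMIs in 25 of 38 cells on day 3 and in 10 of 36 on day 5 and a difference of -1.58. Among all 12 tubulins with a mean of at least 1, a family looked at after the values were seen, 4 were higher and 1 was lower by over 1, against 3.66% and 2.41% of all genes, and the median difference was 0.32. The 4 most abundant, *Tuba1a*, *Tubb5*, *Tuba1b* and *Tubb6*, at mean log2 levels of 8.53 to 10.77 on day 5, differed by 0.81, 0.33, 0.23 and -0.06.

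Forskolin raises cAMP, and the transcription factor CREB binds the cAMP response element (CRE), so the promoters of the leading genes were searched for its full palindrome TGACGTCA, which reads the same on both strands. The windows were RefSeq promoters on GRCm38.p6, 250 bases before to 50 bases after the start, for 27025 genes, of which 549 (2.03%) hold the motif. Of the 15 largest rises 14 had such a window and 1 held the motif, *Tubb2a*. None of the 11 windows among the 15 largest falls held it. The promoter of *Tubb2a* (GRCm38.p6, chr13:34077959-34078258, minus strand) is printed with that of *Tubb4a* (chr17:57087551-57087850, minus strand), the other tubulin among the rises, to show the presence of the motif in the one and its absence in the other. The capitals mark the CRE, which begins 59 bases before the start.
Tubb2a: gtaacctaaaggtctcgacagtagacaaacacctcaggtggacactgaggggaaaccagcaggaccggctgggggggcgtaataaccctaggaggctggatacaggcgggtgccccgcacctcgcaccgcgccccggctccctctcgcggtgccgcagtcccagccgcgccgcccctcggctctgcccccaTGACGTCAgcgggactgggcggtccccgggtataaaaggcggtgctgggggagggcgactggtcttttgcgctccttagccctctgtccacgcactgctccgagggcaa
Tubb4a: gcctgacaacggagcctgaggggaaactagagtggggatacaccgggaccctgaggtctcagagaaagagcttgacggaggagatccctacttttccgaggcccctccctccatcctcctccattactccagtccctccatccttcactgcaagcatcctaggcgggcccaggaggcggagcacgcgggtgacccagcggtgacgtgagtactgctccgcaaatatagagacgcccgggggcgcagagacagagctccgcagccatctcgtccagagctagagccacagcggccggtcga
The AP-1 motif TGAGTCA (searched on both strands; 5.95% of genes) was in none of the windows of either set, and the TCF/LEF motif CTTTGAT (both strands; 4.29%) was in that of *Tmem218*, a fall. A match or its absence describes these letters in this window only. Shorter or inexact forms of the motifs were not searched.

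Genes of the extracellular matrix came next. Of 22 fibroblast matrix and surface genes measured, 10 were higher by over 1 on day 5, against 3.66% of all genes, 1 was lower, and the median difference was 0.99, against 0.02 over all genes. *Col5a2*, a chain of the type V collagen found in collagen fibrils, had a median of 58.4 CPM on day 3 (0 to 629) and of 175 CPM on day 5 (1.35 to 968). Its difference was 1.63, and 32 of 36 day 5 cells were above the day 3 median. *Postn*, which encodes the matrix protein periostin, differed by 1.99 through a part of the cells, with at least 100 CPM in 1 day 3 cell and in 9 day 5 cells and no UMI in 11 day 5 cells. *Col5a1* was higher by 1.53, the elastin gene *Eln* by nearly as much, *Pdgfrb*, the receptor for PDGF-B, by 1.27, *Col1a2* by 1.27, *Col6a2* by 1.11, *Thy1* by 1.05, *Col1a1* by 1.02 and *Col6a3* by 1.00. The lower gene was *S100a4*, a calcium-binding protein used as a fibroblast marker, with medians of 274 and 135 CPM and a difference of -1.37. *Vim*, the mesenchymal intermediate filament, had medians of 994 and 677 CPM and a difference of -0.44, within the threshold. Also within it were the cross-linking enzymes *Lox* (-0.70) and *Loxl1* (-0.27) and the proteoglycan *Lum* (-0.21).

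Collagens were seen across types. Of 23 collagen genes with a mean of at least 1, a family drawn by symbol after the values were seen, 13 were higher by over 1, against 3.66% of all genes, none was lower by over 1, and 21 had a difference above 0. Their summed level per cell had a median of 2778 CPM on day 3 (935 to 7855) and of 5785 CPM on day 5 (895 to 16819), so that the ranges overlapped from end to end while the middle moved up. *Col7a1*, which forms the anchoring fibrils beneath epithelia, differed most, by 2.27, from a median of 1.74 CPM (0 to 42.8) to 33.3 CPM (0 to 382). *Col26a1* differed by 1.82 and the basement membrane gene *Col4a1* by 1.73, while its partner *Col4a2* differed by 0.38. The abundant *Col3a1* differed by 0.99, with medians of 276 and 610 CPM. Both chains of type I collagen and *Col3a1* differed more among cells numbered above 24 (1.47, 1.76 and 1.76 for *Col1a1*, *Col1a2* and *Col3a1*) than among those up to 24 (0.67, 0.93 and 0.47). Of matrix genes outside the lists, the proteoglycan *Vcan* was higher by 1.86 and tenascin C, *Tnc*, by 1.83, both named after their values were seen, whereas *Spp1* and *Smoc2*, described further on, were lower by over 1. *Adamts2*, whose enzyme trims the ends of procollagen, was among the 15 largest rises with 2.04, from a median of 28.4 CPM to 82.2 CPM.

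**Figure D3:**
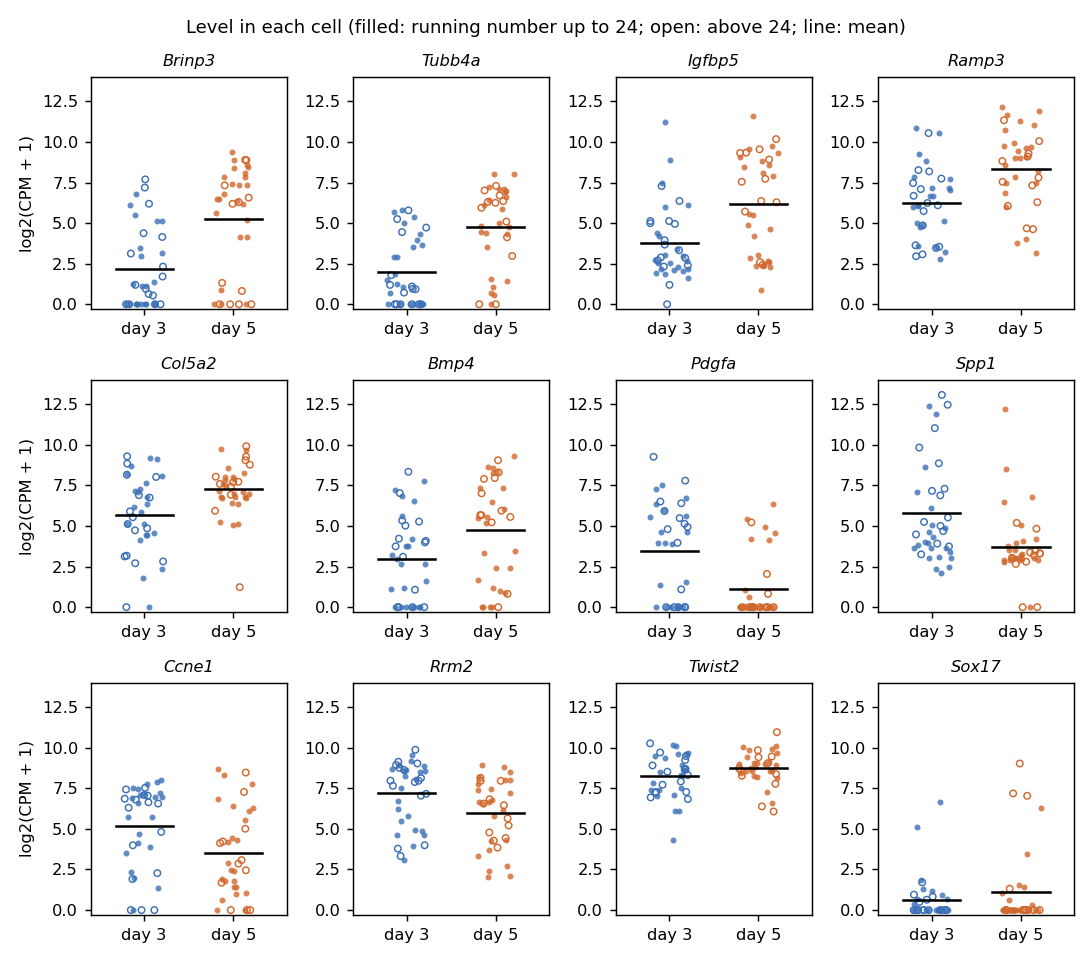
log2(CPM + 1) of 12 genes in each cell of day 3 (blue) and day 5 (orange); filled points are cells numbered up to 24, open points cells above 24, and the line is the mean. *Tubb4a* and *Col5a2* shift in most cells, *Brinp3*, *Igfbp5* and *Bmp4* spread over a wide range on day 5, *Pdgfa* is at 0 in most day 5 cells, and *Sox17* is at or near 0 in all but a few cells of both days.

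In the IGF axis and imprinted growth genes 6 of 19 were higher by over 1, against 3.66% of all genes, and none was lower, with a median of 0.40. *Igfbp5*, whose protein binds IGFs outside the cell (ENSMUSG00000026185; mm9 chromosome 1, 72904506 to 72921458), had a median of 6.65 CPM on day 3 (0 to 2459) and of 79.3 CPM on day 5 (0.81 to 3048). Its difference of 2.43 came with at least 100 CPM in 4 and 17 cells. *Igf1r*, the IGF receptor, differed by 1.64, *Igfbp3* by 1.52, the growth inhibitor *Cdkn1c* by 1.38, *Igf1* by 1.19 and *Igfbp4* by 1.02. For *Igfbp3* the medians were 170 and 698 CPM, but the difference was 2.15 up to number 24 and 0.25 above. The ligand *Igf2* differed by -0.40.

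*Ramp3*, which encodes an accessory protein of the calcitonin-like receptor (ENSMUSG00000041046; mm9 chromosome 11, 6558524 to 6577478), was the most abundant of the 15 rises. It was found in every cell, with a median of 71.1 CPM on day 3 (5.78 to 1899) and of 484 CPM on day 5 (8.09 to 4566), a difference of 2.13 that was 2.25 and 1.77 in the ranges of numbers. *Ackr3*, a scavenging receptor for the chemokine *Cxcl12*, had at least 20 CPM in 17 of 38 and in 32 of 36 cells and differed by 2.18, whereas its highest level was 351 CPM on day 3 and 299 CPM on day 5. The remaining rises were *Serpini1* (neuroserpin, 2.10), the amino acid transporter *Slc7a8* (2.00), the secreted Wnt antagonist *Sfrp1* (1.99), the proprotein convertase *Pcsk6* (1.98), *Prr5* of the mTORC2 complex (1.88) and the RNA-binding *Mex3b* (1.87). All 15, which were picked by their means over both ranges of numbers together, were higher by over 1 in each range.

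Pathways addressed by the cocktail were described by their lists. Among 15 genes of retinoic acid response and metabolism 4 were higher by over 1, against 3.66% of all genes, none was lower and the median was 0.58. They were *Aldh1a2* (1.59), which makes retinoic acid, the retinol carrier *Rbp4* (1.16), its membrane receptor *Stra6* (1.02) and the binding protein *Crabp2* (1.01), while the direct targets *Rarb* and *Cyp26b1* differed by 0.30 and 0.58. *Crabp2* differed by 0.03 up to number 24 and by 2.60 above, and *Aldh1a2* by 2.26 and 0.47. Among 21 Wnt and β-catenin targets 2 were higher, *Sfrp1* and *Apcdd1* (1.42), against 3.66% of all genes, with a median of 0.23 and with *Axin2* at 0.27 and *Lef1* at 0.55. None of 18 cAMP and CREB response genes differed by over 1, against 6.07% of all genes. Their median was 0.37, and *Stc1* (0.99) and *Gem* (0.89) were the highest. In the list of contractile, SRF, YAP and TGF-β targets 2 of 19 were lower by over 1, against 2.41% of all genes. They were *Smad7* (-1.02) and smooth muscle actin, *Acta2* (-1.01). None was higher by over 1, and the median was 0.01.

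The study also examined BMP signalling, a pathway of secreted ligands that act through Smad proteins. Of 17 BMP pathway genes 3 were higher by over 1, against 3.66% of all genes, none was lower, and the median was 0.00. *Bmp4*, a ligand, had a median of 7.17 CPM on day 3 (0 to 324) and of 46.1 CPM on day 5 (0 to 625), with at least 20 CPM in 10 and 22 cells and a difference of 1.82. *Bmp1*, a protease that cleaves procollagen and is no BMP ligand, differed by 1.59. *Bmp2* differed by -0.15, with medians of 35.9 and 21.1 CPM, and the target genes *Id1*, *Id2* and *Id3* by -0.01, 0.17 and 0.00.

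The cell identity genes followed by the study stayed within the threshold when all kept cells entered. *Sox17* (ENSMUSG00000025902; mm9 chromosome 1, 4481009 to 4486494) had a UMI in 14 of 38 day 3 cells (36.8%, exact Clopper-Pearson interval 21.8 to 54.0%) and in 11 of 36 day 5 cells (30.6%, 16.3 to 48.1%). Before that it had one in 1 of 72 day 0 cells, whose median depth of 344196 UMIs was lower. In 0 of 40 day 1 cells it was found, which allows a share of up to 7.50%, taken as 3 divided by the number of cells. The exact interval for these day 1 cells reaches 8.81%. On day 2 *Sox17* was found in 10 of 83 cells (12.0%, 5.93 to 21.0%), with 10 UMIs in all at a median depth of 1055206 UMIs. Its UMIs sat in few cells, with at least 20 CPM in 2 cells on day 3 and in 4 on day 5, and with the highest cell at 102 and at 523 CPM. Among day 3 cells numbered above 24, the 5 cells with a UMI held 8 UMIs in all. Whether such low counts arose in the cell itself was not tested, and the shares of cells with a UMI include them. Summed UMIs were 398 (360 to 439) and 891 (833 to 951), and after thinning to 50000 UMIs 1 of 37 and 4 of 35 cells had one. The difference in mean log2(CPM + 1) was 0.47, with -0.24 up to number 24 and 1.76 above, since the 3 day 5 cells of at least 100 CPM all had numbers above 24. *Sall4* had UMIs in 7 of 38 and in 6 of 36 cells and a difference of 0.10, with -0.34 up to number 24 and 0.77 above. *Gata4* and *Foxa2* had UMIs in 0 of 38 and 0 of 36 cells. By the same division, not an exact interval, this allows shares of cells with a UMI of up to 7.89% and 8.33%.

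Of 13 XEN and primitive endoderm genes with a mean of at least 1, *Sox17* among them, 1 was higher by over 1, against 3.66% of all genes. None was lower by over 1. The higher gene was *Col4a1*, which also stands among the collagens above, and the median of the list was -0.24. *Gata6* differed by -0.31, *Dab2* by -0.63, *Lama1* by 0.83, and 7 of 26 listed genes, among them *Hnf4a*, *Ttr* and *Lrp2*, had no UMI on either day. Fibroblast regulators were described by a list of 15 mesenchymal transcription factors. None was apart by over 1, against 6.07% of all genes, and the median was 0.16. *Prrx1* had medians of 148 and 179 CPM (0.16), *Twist1* of 210 and 272 CPM (0.53) and *Twist2* of 344 and 443 CPM (0.51), and each was found in nearly every cell. *Osr1* had UMIs in 13 of 38 and in 7 of 36 cells and a difference of -0.96, close to the threshold, which it passed with -1.06 without the filter on cells, -1.06 with at least 6000 genes per cell, -1.37 up to number 24 and -2.54 with the log2 of the mean CPM. The largest difference upwards in this list was that of *Zeb2*, a repressor active in the epithelial-mesenchymal transition, with 0.99.

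Among genes that stood lower on day 5, *Pdgfa* came out first. It encodes a ligand of the PDGF receptors (ENSMUSG00000025856; mm9 chromosome 5, 139451968 to 139473324). It ran from 0 to 617 CPM with a median of 14.6 on day 3, and from 0 to 80.5 CPM with a median of 0 on day 5. UMIs were found in 25 of 38 cells (65.8%, 48.7 to 80.4%) and in 11 of 36 (30.6%, 16.3 to 48.1%), and summed UMIs were 2019 (1932 to 2109) and 234 (205 to 266). The difference was -2.34, with -1.84 and -3.16 in the ranges of numbers.

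*Spp1*, the gene of osteopontin (ENSMUSG00000029304; mm9 chromosome 5, 104864137 to 104870069), had the widest range of the falls. On day 3 it ran from 3.30 to 8672 CPM with a median of 24.4, and on day 5 from 0 to 4687 CPM with a median of 8.49. At least 100 CPM was found in 12 and 3 cells. UMIs were found in 38 of 38 and 33 of 36 cells, most of them below 100 CPM on both days. The difference of -2.08 was unequal, with -0.79 up to number 24 and -4.10 above, and the matricellular *Smoc2*, with -1.57, had -0.60 and -3.14. *Angpt2*, an angiopoietin, differed by -1.75, and its summed UMIs were 3884 and 310. The other falls that lie between -1.96 and -1.60 were *Nudt22*, *Tmem218*, the myosin *Myo5a*, the DNA primase subunit *Prim2*, the sorting nexin *Snx8*, *Akip1*, the Arf GTPase regulator *Smap2*, the LIM protein gene *Crip2* and *Trp53i11*. Of the 15 falls, picked by their means over both ranges together, 13 were lower by over 1 up to number 24 and 14 above.

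Cell cycle genes were described by phase. Of 28 S phase genes 5 were lower by over 1 on day 5, against 2.41% of all genes, none was higher, and the median was -0.46. *Ccne1*, the cyclin of the entry into S phase, had a median of 94.97 CPM on day 3 (0 to 254) and of 6.31 CPM on day 5 (0 to 408), with at least 20 CPM in 25 and 12 cells, and differed by -1.64. Among the others were the helicase subunit *Mcm2* (-1.34), the ribonucleotide reductase subunit *Rrm2* (-1.19) and the chromatin assembly factor *Chaf1b* (-1.04). *Mcm2* depended on the range of numbers, with -2.32 up to 24 and 0.25 above. None of 31 genes of G2 and mitosis differed by over 1, against 6.07% of all genes. They ran from *Plk1* at -0.87 to *Kif20b* at 0.50, and their median was -0.10. Summed over the list, these 31 genes had quartiles of 324, 2096 and 6739 CPM per cell on day 3 and of 222, 960 and 10234 CPM on day 5, with a lower median and a higher upper quartile on day 5. The S phase sum had a median of 1629 CPM on day 3 and of 1131 CPM on day 5.

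Of 18 cell cycle inhibitors and p53 targets 3 were lower, *Mdm2* (-1.24), which marks p53 for degradation, *Gadd45a* (-1.14) and *Phlda3* (-1.02), 1 was higher, *Cdkn1c*, listed with the imprinted genes above, against 2.41% and 3.66% of all genes, and the median was -0.37. The inhibitor *Cdkn1a* differed by -0.32. For *Mdm2* the medians were 145 and 61.4 CPM, and 9 of 36 day 5 cells were above the day 3 median. *Gadd45a* differed by -0.41 up to number 24 and by -2.57 above.

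Stress and signalling lists were described in the same way, and their counts stand against 2.41% of all genes lower and 3.66% higher. Of 15 immediate early genes 1 was lower by over 1, the phosphatase gene *Dusp1* (-1.20), with *Fos* at -0.94 and *Egr1* at 0.15 and a median of -0.30. Of 18 ER stress and amino acid response genes 2 were lower, *Mthfd2* (-1.25) of mitochondrial folate metabolism and the chaperone *Dnajb9* (-1.18), none was higher, and the median was -0.38. Among 11 chemokines and cytokines *Cxcl14* was higher (1.62) and *Csf1* lower (-1.11), with a median of -0.62. *Irf1* (-1.05) was the 1 gene apart of 13 in the interferon and MHC class I list, and *Mmp11* (-1.04) that of 12 matrix metalloproteinases and inhibitors. Among 20 glycolysis and hypoxia genes 3 were higher, *Bnip3* (1.06), *Vegfa* (1.06) and the lactate exporter *Slc16a3* (1.05), with a median of 0.13 and *Ldha* at 0.08. *Vegfa* differed by 2.02 up to number 24 and by -0.61 above. Of 11 neuropeptide and prohormone genes 1 was higher, *Pcsk1n* (1.71), whose product inhibits a prohormone convertase. No gene of the ERK feedback, cholesterol synthesis or NRF2 and glutathione lists differed by over 1.

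Levels of these genes were also taken over the course, as a description of the days side by side. Mean log2(CPM + 1) of *Brinp3* was 0.48, 0.59 and 0.85 on days 0 to 2, 2.19 on day 3, 2.98 on day 4, 5.23 on day 5, 6.27 on day 6 and 6.42 on day 8. *Igfbp5* stood at 3.39 on day 2, 3.78 on day 3, 6.21 on day 5, 8.48 on day 6 and 8.39 on day 8. By contrast *Tubb2a* was highest on day 1, at 6.68, and stood at 3.85 on day 3 and 5.94 on day 5, and *Col26a1* was above 4 on days 3 and 5 only among the days from 0 to 8, at 4.20 and 6.02 against 3.20 on day 4 and 1.51 on day 6. *Pdgfa* kept to between 3.35 and 3.63 on days 0 to 3 and was at 1.09 on day 5, 1.20 on day 6 and 1.41 on day 8. *Spp1* was 9.37 on day 1, 5.78 on day 3, 1.86 on day 4 and 3.70 on day 5. *Col1a1* was 9.94 on day 0, 7.55 on day 2, 8.42 on day 3, 9.45 on day 5 and 12.02 on day 8, and its level on day 5 was thus below that of the starting fibroblasts.

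Day 4 did not lie evenly between. Its 40 cells numbered up to 48 had medians of 778218 UMIs and 2.58% spike-in RNA, and its 37 cells above 48 of 322066 UMIs and 4.95%. The part of depth in what follows was not tested. The 2 ranges had *Igfbp5* means of 7.51 and 1.74, *Ackr3* means of 6.51 and 1.97, *Col1a2* means of 9.47 and 6.44 and *Pdgfa* means of 1.84 and 3.89. For these genes the earlier-numbered day 4 cells were beyond the day 5 level of *Igfbp5*, *Ackr3* and *Col1a2*, and the later-numbered cells had lower *Igfbp5*, *Ackr3* and *Col1a2* and higher *Pdgfa* than day 3. *Tubb4a* differed less between the 2 ranges than these genes, at 5.71 and 4.73. It was above its day 3 level of 2.01 in both, and its day 5 level was 4.75.

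**Figure D4:**
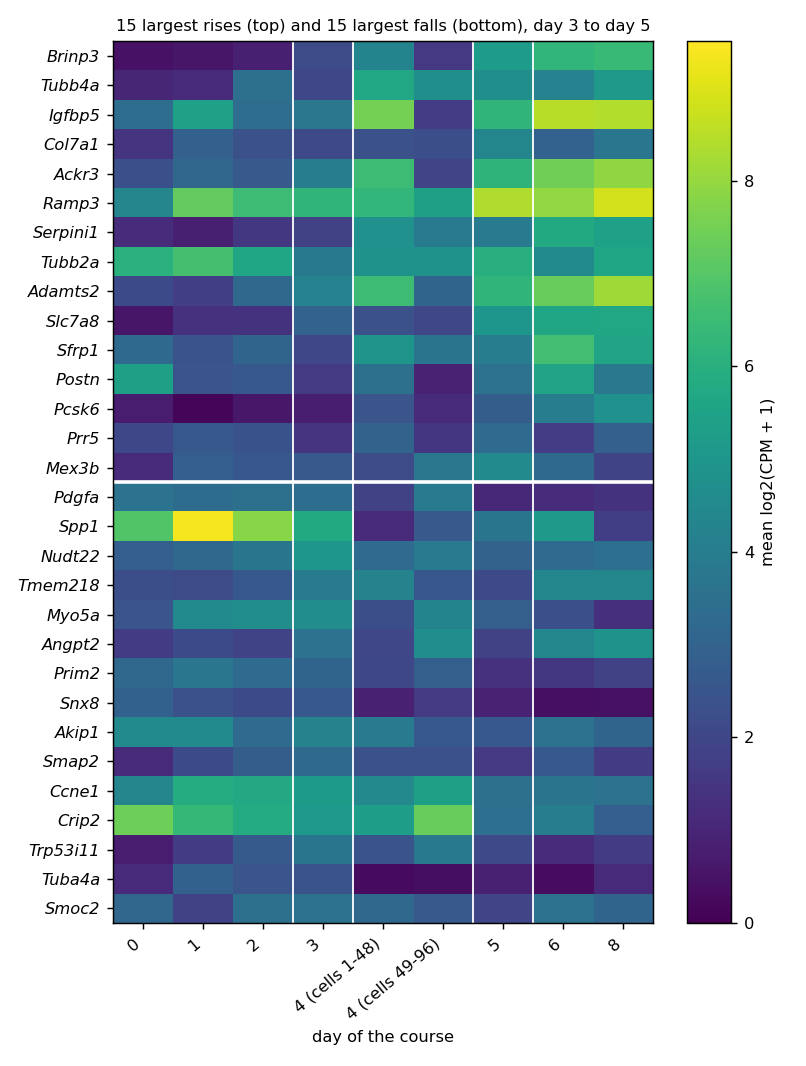
Mean log2(CPM + 1), as colour, of the 15 genes with the largest rise (top) and the 15 with the largest fall (bottom) from day 3 to day 5, for days 0 to 8 with day 4 divided by running number. The 2 columns of day 4 differ for *Igfbp5* (7.51 and 1.74) and *Ackr3* (6.51 and 1.97) and are alike for *Tubb2a* (4.89 and 4.85).

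Markers of other cell types were sparse. Of 10 macrophage markers 7, among them *Ptprc*, *Adgre1* and *Tyrobp*, had no UMI on either day, and the summed level ran from 0 to 167 CPM on day 3 and from 0 to 89.5 CPM on day 5. Of 8 endothelial markers 2, *Pecam1* and *Emcn*, had none, with sums of 0 to 661 and of 0 to 107 CPM, and *Esam* was lower by over 1 (-1.28). Epithelial and keratinocyte markers summed to at most 14.4 and 77.0 CPM, erythroid markers to at most 0 and 9.18 CPM and pluripotency markers to at most 4.53 and 4.11 CPM, all with a median of 0. Of 10 neural markers *Sox10* and *Foxd3* were among those with no UMI and *Tubb3* was higher, and of 10 skeletal muscle markers *Myod1*, *Myf5*, *Myf6* and *Ckm* had none and *Chrna1*, a subunit of the muscle acetylcholine receptor, was lower (-1.10). *Col1a1* and *Thy1* of the fibroblast list had UMIs in 38 of 38 and 36 of 36 cells. For genes this abundant, a UMI in every cell is no check of the labelled fibroblast origin. *Malat1*, a nuclear RNA whose share moves with the quality of cells, had medians of 8786 and 13177 CPM and differed by 0.57. Its part in the differences above was not tested.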

How the data were processed

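Single cells had been picked by hand, and per the labels reads were split by cell barcode, trimmed, aligned to the mm9 mouse transcriptome and freed of duplicates by UMI. The aligner was not given in the sources used here. The deposited values are whole-number counts of UMIs per gene and cell made by the authors, without scaling, for 23197 genes, 92 spike-in RNAs and 808 cells. Dates stood in place of 26 gene names, and 4 entries with repeated names were left out. Doublets were not called. No 2 of the day 3 and day 5 cells were identical.

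UMIs were scaled to the cell's total without spike-in RNA, and log2 was taken with a pseudocount of 1. A gene counted as apart when the means differed by over 1, among genes with a mean of at least 1 on either day. The 74 cells had between 29618 and 4849530 UMIs. Named genes were the 15 largest rises and falls that kept their direction without the gene's highest cell, the genes the study follows and up to 4 per direction of each of 33 lists, and others are marked or belong to these lists. Some members of the lists enter the counts but are not reported here by name. Members and lists were chosen with earlier results of these data known. Alternatives covered the filter on cells, pseudocount, thinning, scaling, minimum level, averaging and running numbers. The comparison was run on simulated data with changes far larger than the threshold, which does not test calls near it. Positions are from GENCODE M1 (mm9). Python 3.11.15, numpy 2.4.6, pandas 2.3.3, scipy 1.17.1, R 4.3.3, edgeR 4.0.16 and DESeq2 1.42.0 were used, the last 2 for scaling factors only.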

Additional observations from a re-analysis of the deposited data

How the results depend on the processing

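No paired analysis was possible because the names of cells give no batch. The counts of genes higher and lower on day 5 were 364 and 240. They were 501 and 148 without a filter on cells, 45 and 18 with a pseudocount of 10, 650 and 414 after thinning, 1306 and 617 with the log2 of the mean CPM, 658 and 399 among cells numbered up to 24 and 928 and 1103 above 24. The split also moved with scaling, to 303 and 267 with TMM factors and to 260 and 251 with DESeq2 factors, and to 369 and 314 with at least 6000 genes per cell. The median difference over the same genes lay between -0.04 and 0.13. With a pseudocount of 10, 191 genes were apart from day 2 to day 3, 232 from day 3 to day 4, 215 from day 4 to day 5 and 704 from day 5 to day 6, and with the log2 of the mean CPM 1855, 2125, 2331 and for the last step 3327. Day 3 and day 5 had fewer genes apart than each of these steps under every alternative run for both except the log2 of the mean CPM, where 1923 genes were apart against 1855 from day 2 to day 3. *Sox17* differed by 2.39 on that scale. The cause of these changes was not tested. Of the 30 largest rises and falls none changed sign, 24 stayed over 1 with the log2 of the mean CPM and 19 with a pseudocount of 10. These genes were picked for the largest differences in the same cells and for keeping their direction without the highest cell. Their unchanged signs are therefore no independent support. Without replicates no spread between samples can be given. Taken as 3 divided by the number of cells, a count of 0 cells allows up to 7.89% of day 3 and 8.33% of day 5 cells.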

Other observations

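*Krt18*, a keratin of simple epithelia on the XEN list, lay below the minimum level and was singled out after its values were seen. It had UMIs in 17 of 38 day 3 cells and in 14 of 36 day 5 cells, with at least 100 CPM in 0 and 2 cells, a highest cell of 28.9 and of 971 CPM, and a mean CPM of 32.4 on day 5 that was 5.54 without the highest cell. The spread of gene levels over cells was alike on the 2 days, with a median SD of log2(CPM + 1) over genes of 1.90 on day 3 and 1.99 on day 5.

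Transcripts of both sexes occurred in the same cells. *Xist*, made from the inactive X of female cells, and at least 1 of 4 Y-linked transcripts had UMIs together in 19 of 38 day 3 cells and in 15 of 36 day 5 cells. In these cells the smaller of the 2 signals took a median of 2.26% of their sum on day 3 (0.239 to 20%) and of 0.935% on day 5 (0.289 to 3.45%).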
